A study of Mus musculus with 121 samples.

Results

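Interferon response genes were followed in the brain of mice with a conditional hypermorphic allele of Gdnf, the gene for glial cell line-derived neurotrophic factor. The set held Xaf1 and 38 other genes that interferon is known to induce or that carry its signal. They were chosen by symbol, and all 39 were found among the 24412 genes of the count table. No threshold on these data was used, but the set was proposed with earlier results of these data known, and Xaf1 is on a list that the study chose on these samples. RNA was sequenced from 43 male mice, with 1 library per mouse and region, from the prefrontal cortex (PFC), the striatum (STR) and the substantia nigra (SN).

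The Gdnf cHyper allele (cKU in the labels) carries a polyadenylation cassette that lies backwards just behind the stop codon, and Cre turns it round so that the transcript gets a shorter 3' end. Mice were WT (Gdnf wt/wt), HET (wt/cHyper) or HOM (cHyper/cHyper) on a mixed 129Ola, ICR and C57bl6 background. Nestin-Cre mice (21 mice, 56 libraries) had Cre under the Nestin promoter, which acts in neural precursors from mid-gestation, were not injected and were 2 months old. AAV-Cre mice (22 mice, 65 libraries) received an adeno-associated virus with Cre, AAV2/5, into the striatum of both sides at 3 to 5 months and were taken at 5 to 7 months. WT littermates were injected too, so AAV-Cre mice of every genotype had surgery and virus, and the Nestin-Cre mice had neither. Injection, age, Cre source and cohort therefore cannot be told apart in any comparison between the models. In the AAV-Cre model there were 7 WT, 7 HET and 8 HOM libraries in PFC and in SN and 7 of each genotype in STR. In the Nestin-Cre model there were 8 WT, 6 HET and 4 HOM libraries in PFC and 6 WT, 7 HET and 6 HOM in STR and in SN.

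Interferons are secreted proteins that cells make when sensors find foreign or misplaced nucleic acid. Type I interferon activates STAT2, which in a complex with IRF9 binds the interferon-stimulated response element (ISRE) before the genes it induces, while type II interferon acts at the GAS element. In the brain, microglia, astrocytes, endothelial cells and neurons can all respond, and low levels of these transcripts are found without infection.

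Promoter sequence was available for 29 of the 39 members (RefSeq, build GRCm38.p6, 250 bases before and 50 after a start site). The ISRE core, searched as GAAANNGAAA or its reverse complement TTTCNNTTTC, was present in 15 of these 29 (51.7%), against 3.44% of all 32851 promoter windows of 300 bases. A GAS core, TTCNNNGAA, was present in 5 (17.2%), against 8.3% of all windows; matches of the 2 searches may share letters. The members were listed as known interferon targets, so this share describes the list. The promoters printed here are those of a signalling gene with several ISRE cores (Isg15, minus strand, chr4:156200769-156201068), of an antiviral effector (Ifit3, plus strand, chr19:34583279-34583578), of a GTPase (Irgm1, minus strand, chr11:48871371-48871670) and of Xaf1 (plus strand, chr11:72301379-72301678). Each is given 5' to 3' on the strand of its gene, with the ISRE cores in capitals.
Isg15: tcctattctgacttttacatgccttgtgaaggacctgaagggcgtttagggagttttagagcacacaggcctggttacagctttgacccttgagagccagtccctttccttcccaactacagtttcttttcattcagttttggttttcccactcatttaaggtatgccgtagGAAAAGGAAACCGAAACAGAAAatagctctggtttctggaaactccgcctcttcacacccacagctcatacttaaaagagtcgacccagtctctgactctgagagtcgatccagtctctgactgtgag
Ifit3: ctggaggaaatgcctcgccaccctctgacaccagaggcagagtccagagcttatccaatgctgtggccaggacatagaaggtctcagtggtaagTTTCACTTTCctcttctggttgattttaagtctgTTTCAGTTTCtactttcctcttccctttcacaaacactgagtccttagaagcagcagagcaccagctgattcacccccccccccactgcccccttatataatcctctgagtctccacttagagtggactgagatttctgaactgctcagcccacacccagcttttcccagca
Irgm1: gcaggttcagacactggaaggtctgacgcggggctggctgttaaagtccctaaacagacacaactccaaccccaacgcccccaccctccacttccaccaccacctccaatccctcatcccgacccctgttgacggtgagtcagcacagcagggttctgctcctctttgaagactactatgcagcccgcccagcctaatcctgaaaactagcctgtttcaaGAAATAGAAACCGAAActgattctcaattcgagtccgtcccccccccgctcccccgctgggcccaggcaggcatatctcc
Xaf1: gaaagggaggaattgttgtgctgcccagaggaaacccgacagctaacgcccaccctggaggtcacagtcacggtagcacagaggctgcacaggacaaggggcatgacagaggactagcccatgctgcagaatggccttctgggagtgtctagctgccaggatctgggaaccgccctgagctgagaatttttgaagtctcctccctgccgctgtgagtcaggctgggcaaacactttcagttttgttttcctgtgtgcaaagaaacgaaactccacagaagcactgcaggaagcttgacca
The Isg15 promoter held 3 overlapping cores, which began at -78, -72 and -66 from the start site. The Irgm1 promoter held an overlapping pair at -30 and -24, and the Ifit3 promoter held cores at -156 and -122. In the Xaf1 window these letters were not found on either strand.

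Levels per length covered a wide range, given here as counts per 1000000 counts of a library (cpm) per kilobase of annotated exon and averaged over all libraries. Among the effectors (median 1.66 cpm per kb) Ifi27, a mitochondrial membrane protein, was the highest of all members at 27.9 cpm per kb. Cmpk2, a mitochondrial nucleotide kinase, had 9.88 and Xaf1, a pro-apoptotic protein that binds XIAP, had 5.46 cpm per kb. Among the signalling genes (median 1.33) Lgals3bp, a secreted glycoprotein, had 10.1 and the transcription factor Stat2 had 8.11. The GTPases (median 1.86) were led by Irgm1 at 4.27, and Gbp7 had 1.19. The antigen processing genes had 3.54 (the immunoproteasome subunit Psmb8), 2.00 (Psmb9) and 1.44 cpm per kb (the peptide transporter Tap1). The sensors were the lowest (median 0.875), with the RNA sensors Ddx58 (RIG-I) at 1.39 and Ifih1 (MDA5) at 0.909, and Zbp1, a sensor of Z-form nucleic acid, at 0.129, the lowest of all members. Counts behind these levels were small for several members: Isg15, a ubiquitin-like modifier, had 0 to 87 reads in a library, and Oas2, which makes the activator of RNase L, had 2 to 64. All later levels are cpm of 1 gene and are not compared between genes. The strand setting of the counting is not given in the sources used here, and without it reads of Ifi27 and Ifi27l2a, which overlap on opposite strands, and of Parp9 and Dtx3l, which overlap at their starts, cannot be told apart. Ifit3 and Ifit3b, the Gbp genes, Igtp, Iigp1 and Irgm1, and Trim30a have near-identical relatives, so that their shares of reads are uncertain.

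Library totals ran from 9869584 to 26750905 counts. Region markers went with the region labels: 6 dopamine neuron markers summed to at least 1474 cpm in every SN library and to at most 51.5 in any other, and 6 striatal projection neuron markers to at least 5546 cpm in every STR library and to at most 1330 in any other. Gdnf itself, whose exons were counted whole, was best measured in STR. In AAV-Cre STR it had 6.62 ± 0.718 cpm (mean ± SD, n = 7) in WT, 7.56 ± 1.03 for HET (n = 7) and 8.72 ± 0.894 for HOM (n = 7), and the lowest HOM library (7.71) lay above the highest WT library (7.45). In Nestin-Cre STR it had 5.69 ± 1.15 (n = 6), 6.20 ± 1.71 (n = 7) and 7.04 ± 1.40 cpm (n = 6), and the groups overlapped. Neither HOM difference passed edgeR's quasi-likelihood test (adjusted p = 0.504 and 0.784). The count takes in the native 3' end, which the recombined transcript lacks, so it can understate Gdnf from that allele. By qPCR the study reported increased striatal Gdnf mRNA in both models.

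A few WT libraries were high in the members. The member index, the mean of log2(cpm + 0.5) over the 39 genes, was 3.05 in the AAV-Cre STR library of mouse M3677, with the next WT library at 2.54. It was 2.95 in the AAV-Cre PFC library of M3588, with the next at 2.5. In Nestin-Cre SN it was 3.14 in M4329 and 3.19 in M4394, with the other 4 WT libraries at 2.03 to 2.45. M3677 had 2.22 in PFC and 2.11 in SN, and M4394 had 1.84 in PFC and 1.54 in STR. By Dixon's gap test the index of 0 of the 18 groups held a library beyond its 95% value, so these libraries are singled out by their levels and not by that test. Markers of other cells moved with these libraries. In the STR library of M3677, 6 of 10 T and B lymphocyte markers were above all 6 other WT libraries, with Cd8a at 0.883 cpm against at most 0.230 and Cd3e at 0.441 against at most 0.312; their summed level, 107 cpm, lay within the 73.9 to 115 of the others. The list summed outside the others' range in that library was the microglia markers (786 cpm against at most 780). The SN libraries of M4329 and M4394 had summed cortical excitatory neuron markers of 256 and 203 cpm against 30.0 to 38.2 in the other 4, and oligodendrocyte markers of 21070 and 18020 against 25530 to 31980, with 6 of 6 below all of those. Of the lymphocyte markers, 8 and 6 of 10 were above those 4 libraries, and of the markers of reactive astrocytes and injury 5 and 6 of 7 (summed level 1559 and 1365 cpm, within the 1048 to 2125 of the group). Endothelial markers summed to 154 and 118 cpm against at most 115 in the other 4, lymphocyte markers to 13.3 and 11.6 against at most 9.40, and striatal projection neuron markers to 137 and 210 against 182 to 198. M4394 also lay outside in choroid plexus (274 against at most 259) and dopamine neuron markers (2602 against at least 2631). In the PFC library of M3588, 6 of 12 microglia, 4 of 6 endothelial and 4 of 6 oligodendrocyte markers were above all 6 other WT libraries. There 7 lists summed outside the others' range. Above it were microglia (796 cpm against at most 770), endothelial (215 against 193), oligodendrocyte (4895 against 4692), astrocyte (5682 against 5445) and reactive astrocyte and injury markers (444 against 377). Below it were neuron (3995 against at least 4187) and cortical excitatory neuron markers (1665 against 1673). The part of these cells in the members' levels was not tested. Quasi-likelihood totals of members called that rest on these libraries are given with and without them. So are differences of named genes that lost their call or moved by over 1.5 times without them. The likelihood ratio test and DESeq2 were not run without them, so their counts hold these libraries. Only WT libraries were singled out in this way. In AAV-Cre SN the index reached 3.05 for HET (M3586) and 3.00 for HOM (M3567), with the next libraries at 2.88 and 2.845. M4575 carries a WT label for its PFC library but a HOM label for its other regions, and each library kept its own.

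**Figure D1:**
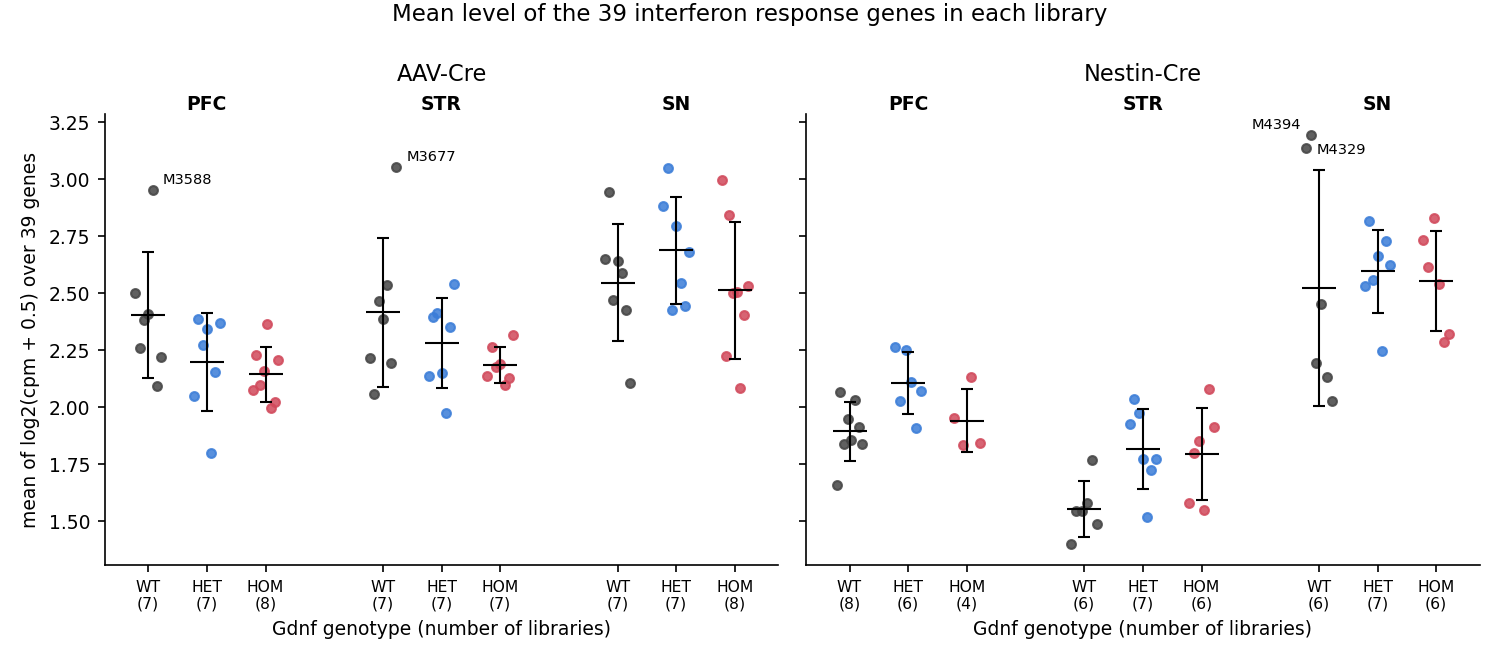
Member index (mean of log2(cpm + 0.5) over the 39 interferon response genes) of each library by region, model and genotype; points are libraries and bars give the mean ± SD. Nestin-Cre STR WT is the lowest group (1.55 ± 0.12), and single WT libraries at 3.05 (AAV-Cre STR), 2.95 (AAV-Cre PFC), and 3.14 and 3.20 (Nestin-Cre SN) lie above the rest of their groups.

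The first question was whether the Gdnf allele went with a change in the members. In the 12 comparisons of HET or HOM with WT, 0 members passed edgeR's quasi-likelihood test at an adjusted p under 0.1. Over all genes the share called was 0% in AAV-Cre PFC HET and 0.0137% in HOM, 0% for both in AAV-Cre STR and in SN, 0% in Nestin-Cre PFC HET and 0.25% in HOM, and 0% for both in Nestin-Cre STR and in SN. Between 36 and 38 members were tested: Zbp1 did not reach the filter on low counts in any of the 12, Oas2 not in Nestin-Cre PFC and STR, and Ifi27l2a not in Nestin-Cre PFC. The members' median log2 fold change was -0.25 for HET and -0.28 for HOM in AAV-Cre PFC, and -0.09 and -0.30 in AAV-Cre STR. It was 0.22 and 0.05 in Nestin-Cre PFC and 0.32 and 0.23 in Nestin-Cre STR. In SN the medians were 0.16 and 0.01 with AAV-Cre and -0.03 and -0.08 with Nestin-Cre, and the median over all genes stayed between 0.00 and 0.01 in the 12. These medians moved with single WT libraries. The Nestin-Cre SN medians were 0.32 for HET and 0.30 for HOM without M4329 and M4394. Without M3588 those of AAV-Cre PFC were -0.14 and -0.19, and without M3677 those of AAV-Cre STR were 0.00016 and -0.10. In these fits too 0 members passed.

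Counts at an unadjusted p under 0.05 (edgeR's quasi-likelihood test) are given beside the same share of all genes, and in 6 of the 12 comparisons the members' share was the higher. In AAV-Cre PFC the p was under 0.05 for 3 (7.89%, against 12.3% of all genes) of the members tested for HET and for 13 (34.2%, against 14.2% of all genes) for HOM. In AAV-Cre STR these were 5 (13.2%, against 1.71% of all genes) and 10 (26.3%, against 4.58% of all genes). The 6 with the higher share for members included HOM in AAV-Cre PFC and both genotypes in AAV-Cre STR, and these counts were lower without single WT libraries. Without M3588 in PFC the counts were 1 (2.63%, against 7.36%) for HET and 5 (13.2%, against 8.92%) for HOM, and without M3677 in STR they were 0 (0%, against 1.56%) and 3 (7.89%, against 4.75%). In Nestin-Cre PFC the p was under 0.05 for 8 (22.2%, against 9.72% of all genes) for HET and 2 (5.56%, against 10.1% of all genes) for HOM, and in Nestin-Cre STR for 8 (21.6%, against 17.3% of all genes) and 8 (21.6%, against 4.62% of all genes). The shares were below those of all genes in SN, with 0 (0%, against 4.69% of all genes) and 1 (2.63%, against 7.49% of all genes) for AAV-Cre and 1 (2.63%, against 8.99% of all genes) and 0 (0%, against 4.09% of all genes) for Nestin-Cre. Without M4329 and M4394 the Nestin-Cre SN counts were 13 (34.2%, against 12.3%) for HET and 7 (18.4%, against 11.8%) for HOM. The members vary together within groups, so these shares are descriptions.

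Other tools called a few members. edgeR's likelihood ratio test called 2 members for HET and 6 for HOM in AAV-Cre PFC, against 1.7% and 2.93% of all genes, and 3 and 7 in AAV-Cre STR, against 0.382% and 1.19%. It called 1 for HET in AAV-Cre SN, against 2.19%, and 2 and 1 in Nestin-Cre PFC, against 2.88% and 2.15%. In Nestin-Cre STR it called 1 and 1, against 8.57% and 1.91%, and in Nestin-Cre SN 1 for HOM, against 0.8%. For HET in Nestin-Cre STR, DESeq2 called 1, against 3.69% of all genes, and a single fit of the libraries of all groups called 6, against 19.2%, and 1 for HET in Nestin-Cre SN, against 14.7%.

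Single members show the size of these differences. Trim30a, a TRIM protein that restrains inflammatory signalling, had 2.70, 3.29 and 4.07 cpm (lowest, median and highest library) in AAV-Cre STR WT and 1.77, 2.19 and 2.61 in HOM. The groups did not overlap, and the difference of -0.61 ± 0.13 (log2, SE) had an adjusted p of 0.504. Ddx58 had 2.79, 3.50 and 4.88 cpm in Nestin-Cre STR WT and 3.99, 5.37 and 5.89 in HET. Of the HET libraries, 7 of 7 were above the WT mean, the groups overlapped, and the difference of 0.50 ± 0.13 had an adjusted p of 0.175. Cmpk2 had 25.0, 26.4 and 29.0 cpm in AAV-Cre PFC WT and 27.8, 30.6 and 38.0 in HOM, with a difference of 0.26 ± 0.07 (adjusted p = 0.171), opposite in sign to the members' median there. Ifi27 had 19.6, 22.5 and 24.5 cpm in Nestin-Cre PFC WT and 22.5, 25.8 and 29.4 in HET, with 6 of 6 HET libraries above the WT mean and a difference of 0.20 ± 0.07 (adjusted p = 0.343). These 4 were each the member with the lowest adjusted p in their comparison. The GTPases Igtp and Iigp1, which act on vacuoles of intracellular pathogens, had differences of -1.0 ± 0.46 and -1.19 ± 0.46 in AAV-Cre STR HOM (adjusted p = 1.00 and 1.00). Both values rest on the WT library of M3677. Without it the differences were 0.16 for Igtp and -0.082 for Iigp1.

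Whether a genotype effect differed between the models was tested in 1 fit of all libraries. For HET in STR, 2 of 39 members passed, against 2.63% of all genes, and both had a lower HET effect with AAV-Cre. For Tap1, which carries peptides into the endoplasmic reticulum for MHC class I, AAV-Cre STR libraries had 3.69, 4.87 and 15.8 cpm (lowest, median and highest) in WT and 2.83, 4.39 and 5.15 in HET, and Nestin-Cre STR libraries had 1.09, 1.83 and 2.00 in WT and 1.73, 2.29 and 3.80 in HET. The HET effects differed by -1.15 ± 0.28 (log2, SE; adjusted p = 0.0225). For Irgm1, a GTPase of autophagy, they differed by -0.74 ± 0.22 (adjusted p = 0.0701). Its AAV-Cre STR libraries had 6.80, 8.23 and 24.9 cpm in WT and 5.48, 7.53 and 8.33 in HET, and its Nestin-Cre STR libraries 3.48, 4.49 and 4.80 and 3.93, 4.92 and 7.55. For HOM in STR, Trim30a passed alone, against 0.0191% of all genes, with a difference of -1.32 ± 0.28 (adjusted p = 0.0586). Its Nestin-Cre STR libraries had 0.766, 1.58 and 2.32 cpm in WT and 1.33, 2.53 and 3.69 in HOM. The highest AAV-Cre WT values of Tap1 and Irgm1 were from M3677, and without that library none of the 3 genes passed, with differences of -0.75 for Tap1 (adjusted p = 0.111), -0.36 for Irgm1 (0.292) and -1.28 for Trim30a (0.170). In PFC 0 members passed for HET and HOM, against 0% and 0.306% of all genes, and in SN 0, against 3.6% and 0%. An unadjusted p under 0.05 by edgeR's quasi-likelihood test was found in PFC for 12 (30.8%, against 9.78% of all genes) members for HET and 4 (10.3%, against 11.7% of all genes) for HOM, and in SN for 2 (5.13%, against 19% of all genes) and 0 (0%, against 5.42% of all genes). In STR these were 15 (38.5%, against 17.2% of all genes) and 16 (41.0%, against 8.6% of all genes). Without M3588 the PFC counts were 1 (2.56%, against 7.36%) and 2 (5.13%, against 9.62%), and without M3677 the STR counts were 8 (21.1%, against 16.2%) and 11 (28.9%, against 7.65%). Without M4329 and M4394 the SN counts were 4 (10.5%, against 21.2%) and 5 (13.2%, against 12.2%). The likelihood ratio test called 1 and 1 in PFC, against 1.13% and 1.22% of all genes, 9 and 9 in STR, against 6.43% and 2.03%, and 2 and 1 in SN, against 7.98% and 1.85%. Of the other pathway genes, Nlrc5 (-1.47 ± 0.45), Isg20 (-1.45 ± 0.43) and Socs3 (-0.89 ± 0.27) passed for HET in STR, and Tlr7 (0.83 ± 0.26) and Adar (-0.42 ± 0.12) for HET in SN. Without M3677, Nlrc5 (-0.78, 0.313), Isg20 (-1.35, 0.115) and Socs3 (-0.82, 0.123) did not pass, and without M4329 neither Tlr7 (0.78, 0.115) nor Adar (-0.36, 0.103) did.

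Whether a genotype effect differed between regions of 1 model was tested in the same fit, and 0 members passed. Of all genes, 0% passed for HET and 0% for HOM in AAV-Cre STR minus PFC, and 0% and 0% in AAV-Cre SN minus PFC. With Nestin-Cre, 0.0702% and 0% passed in STR minus PFC and 0.198% and 0% in SN minus PFC. By edgeR's quasi-likelihood test, the members with an unadjusted p under 0.05 numbered 1 (2.56%, against 2.46% of all genes) and 1 (2.56%, against 1.97% of all genes) in AAV-Cre STR minus PFC, HET and HOM in turn, and 7 (17.9%, against 8.49% of all genes) and 3 (7.69%, against 8.04% of all genes) in AAV-Cre SN minus PFC. In the latter they were 0 (0%, against 5.52%) and 0 (0%, against 5.40%) without M3588. With Nestin-Cre they numbered 1 (2.56%, against 8.67% of all genes) and 5 (12.8%, against 4.76% of all genes) in STR minus PFC and 0 (0%, against 9.05% of all genes) and 0 (0%, against 3.75% of all genes) in SN minus PFC, and without M4329 and M4394 the latter were 2 (5.26%, against 12.4%) and 3 (7.89%, against 9.13%). The likelihood ratio test called 1 member for HET in AAV-Cre SN minus PFC, against 1.87% of all genes, and 1 for HOM in Nestin-Cre SN minus PFC, against 0.574%.

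Xaf1, on chromosome 11 (chr11:72301629-72313733, plus strand, 6 exons, 2598 exonic bases), had levels that separated the mice in the same way in every region. In AAV-Cre PFC, 7 libraries had 2.46 to 4.79 cpm and 15 had 11.4 to 30.6. The gap lay between 7.36 and 16.1 cpm in AAV-Cre STR (7 below, 14 above) and between 9.58 and 17.0 in SN (7 below, 15 above). With Nestin-Cre it lay between 3.33 and 8.64 cpm in PFC (10 below, 8 above), 3.63 and 7.40 in STR (11 below, 8 above) and 9.46 and 20.3 in SN (11 below, 8 above). Each gap was the widest step between neighbouring libraries on the log scale, from 1.77-fold to 2.60-fold. Of the 42 mice with 2 or 3 regions, 42 were on the same side of the gap in every region. Over all 43 mice, 24 were above and 19 below.

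**Figure D2:**
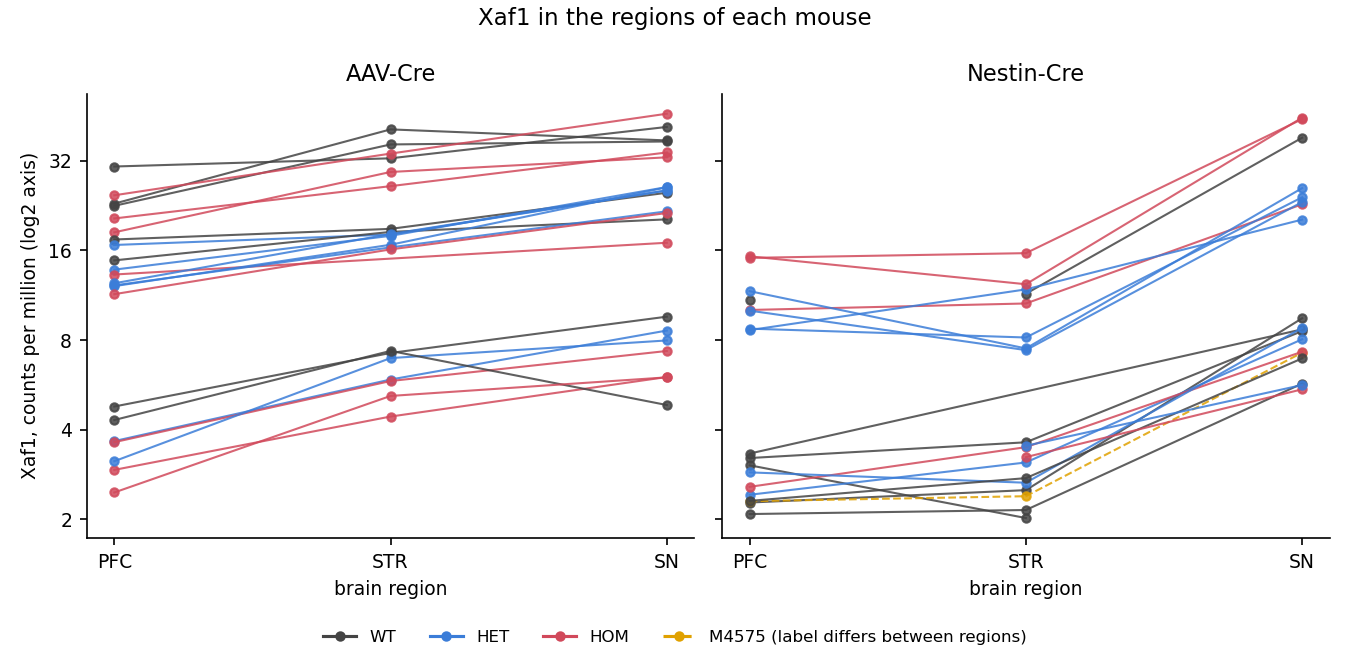
Xaf1 in each mouse (cpm, log axis) over PFC, STR and SN, with 1 line per mouse, a panel for each model and colours for genotype. The lines of low and high mice stay apart: 42 of 42 mice with at least 2 regions keep their side of the gap.

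Single mice show how far apart the sides were. With AAV-Cre, the WT mouse M3576 had 4.79, 7.24 and 9.58 cpm in PFC, STR and SN, and the WT mouse M3649 had 22.9, 40.7 and 37.4. With Nestin-Cre, the WT mouse M4612 had 2.09, 2.15 and 5.71 cpm and the HOM mouse M4568 had 15.1, 15.7 and 44.1. Each genotype had mice on both sides. With AAV-Cre, 5 of 7 WT, 5 of 7 HET and 5 of 8 HOM mice were above the gap in PFC. With Nestin-Cre these were 1 of 8, 4 of 6 and 3 of 4 in PFC and 1 of 6, 4 of 7 and 3 of 6 in SN. M4575, the mouse with conflicting labels, was below in all 3 regions (2.30, 2.39 and 7.26 cpm). In SN a further gap divided the libraries above into a middle and an upper set, at 17.0 to 26.1 and 32.8 to 46.0 cpm with AAV-Cre and at 20.3 to 25.9 and 38.2 to 44.6 with Nestin-Cre. The same AAV-Cre mice had ranges that did not overlap in PFC (11.4 to 17.4 and 18.4 to 30.6) or STR (16.1 to 18.9 and 26.3 to 40.7), while with Nestin-Cre they overlapped in STR (7.40 to 11.8 and 11.4 to 15.7). The upper set held 3 WT, 0 HET and 3 HOM mice with AAV-Cre and 1, 0 and 2 with Nestin-Cre. The middle set held 2, 5 and 2 with AAV-Cre and 0, 4 and 1 with Nestin-Cre. These sets were read from Xaf1 itself, and no test and no correlation is given for them.

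**Figure D3:**
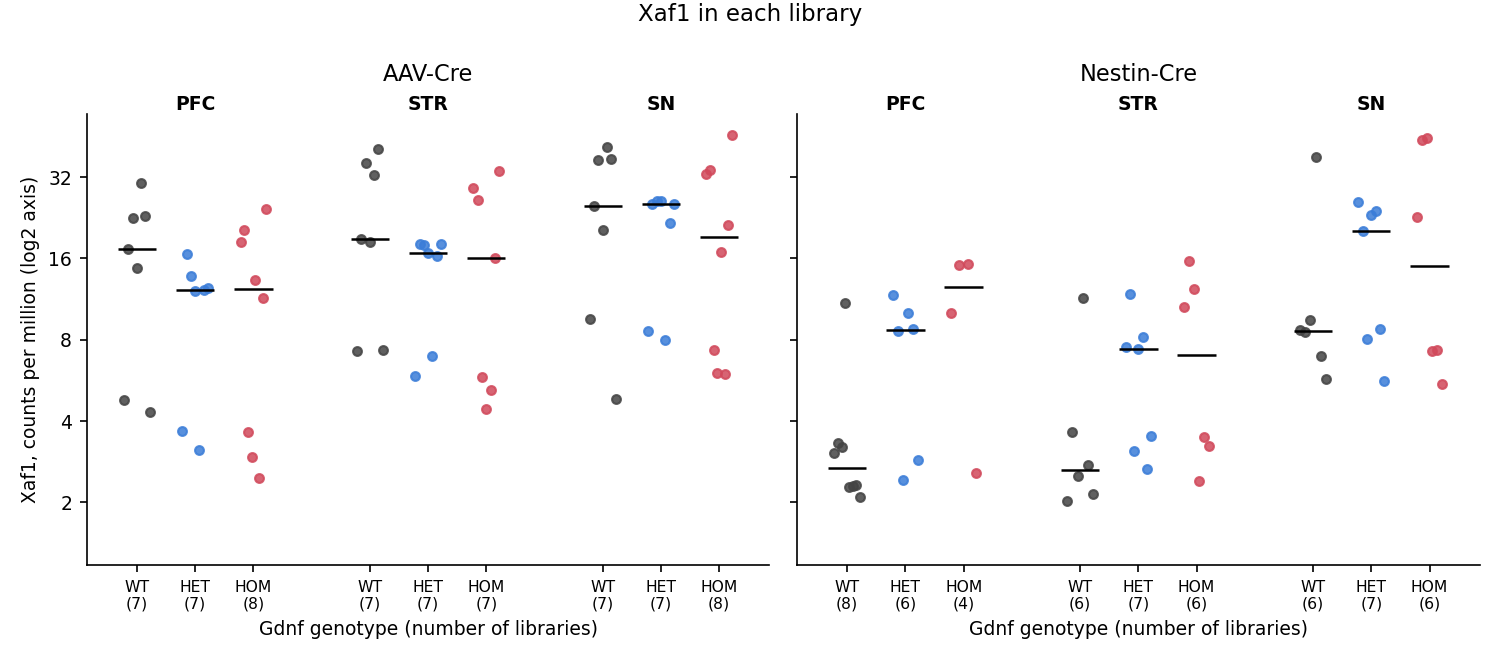
Xaf1 in each library (cpm, log axis) by region, model and genotype; points are libraries and bars are group medians. Low and high libraries are found in every region and model, and the Nestin-Cre WT groups hold 1 high library each (10.9, 11.4 and 38.2 cpm in PFC, STR and SN).

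No genotype difference of Xaf1 passed edgeR's quasi-likelihood test. In Nestin-Cre PFC its means were 3.69 ± 2.97 cpm in WT (SD, n = 8), 7.40 ± 3.84 for HET (n = 6) and 10.8 ± 5.96 for HOM (n = 4), with differences from WT of 0.99 ± 0.43 (edgeR, adjusted p = 0.453) and 1.55 ± 0.47 (0.210). In WT, HET and HOM in turn, the means were 4.08 ± 3.65, 6.31 ± 3.36, 7.95 ± 5.63 cpm in Nestin-Cre STR and 12.9 ± 12.4, 16.6 ± 8.69, 21.9 ± 18.5 in SN, with adjusted p from 0.547 to 0.892. With AAV-Cre the WT mean was the highest in each region: 16.8 ± 9.70, 10.6 ± 5.15, 12.1 ± 8.56 cpm in PFC, 23.1 ± 13.6, 14.3 ± 5.42, 17.3 ± 12.5 in STR and 25.1 ± 14.4, 20.2 ± 8.25, 21.3 ± 15.1 in SN, with adjusted p from 0.573 to 1.00. Low and high mice within a group made the spread wide. edgeR's likelihood ratio test, which takes the spread from the trended dispersion, called Xaf1 in 8 of the 12 comparisons, and its direction differed between the models. With AAV-Cre it was lower, in PFC for HET (-0.64, 6.77e-05) and HOM (-0.45, 0.00915) and in STR for HET (-0.69, 1.77e-06) and HOM (-0.43, 0.0194; log2 fold change and adjusted p). The highest of these WT libraries in PFC was that of M3588, without which the PFC differences were -0.43 for HET and -0.23 for HOM; the likelihood ratio test was not run without it. With Nestin-Cre it was higher, in PFC for HET (0.99, 1.27e-07) and HOM (1.55, 1.09e-15), in STR for HOM (0.94, 0.0114) and in SN for HOM (0.74, 0.0296; 0.50 without M4329 and M4394). The test of the difference between the models was called by the likelihood ratio test in all 3 regions for both genotypes (adjusted p at most 0.0220) and by the quasi-likelihood test in none (at least 0.292). Each Nestin-Cre PFC HOM mouse was also left out in turn. For HOM against WT in that region the quasi-likelihood test then gave an adjusted p of 0.0746 without M4580, the HOM mouse with the lowest Xaf1 (2.57 cpm), and 0.287, 0.625 and 0.494 without M4393, M4568 and M4569.

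WT mice of the AAV-Cre and Nestin-Cre models differed in many members, and the count was highest in STR. Injection, age, Cre source and cohort cannot be told apart here. The STR minus PFC difference itself was higher with AAV-Cre for 8 members, against 15.2% of all genes, and for 2 without M3677. In STR 35 of 39 members were higher with AAV-Cre, against 30.6% of all genes, and 1 was lower, against 29.1%. The members' median difference was 1.06 (log2), and that of all genes was 0.01. Without the library of M3677, 32 (84.2%) were higher and 1 lower, with a median of 0.85. In PFC 22 were higher, against 20.2% of all genes, and 1 was lower, against 20.9%, with a median of 0.59. Without the library of M3588 these were 16 (41.0%) and 1, with a median of 0.41. In SN 7 were higher, against 34.4% of all genes, and 3 lower, against 28.3%, with a median of -0.10. Without the Nestin-Cre libraries of M4329 and M4394, 13 of 38 (34.2%) were higher and 1 lower in SN, with a median of 0.34. This share is near the 34.4% of all genes higher with both libraries in. With the 3 genotypes averaged, the counts were 35 higher and 1 lower in STR, 23 and 1 in PFC, and 10 and 5 in SN, and the medians were 0.66 in STR, 0.29 in PFC and -0.0029 in SN. The members higher were then 89.7%, 59.0% and 25.6% in turn. Shares of all genes are given here for the main fit only. The member lower in all 3 regions was Cmpk2, at 30.4 ± 2.33 against 33.4 ± 3.40 cpm in STR (-0.18 ± 0.07, adjusted p = 0.0307) and 26.8 ± 1.47 against 31.6 ± 2.40 in PFC (-0.27 ± 0.07, 0.00197; -0.15 with the genotypes averaged). In bulk samples, fewer cells of a type and less RNA per cell cannot be told apart.

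**Figure D4:**
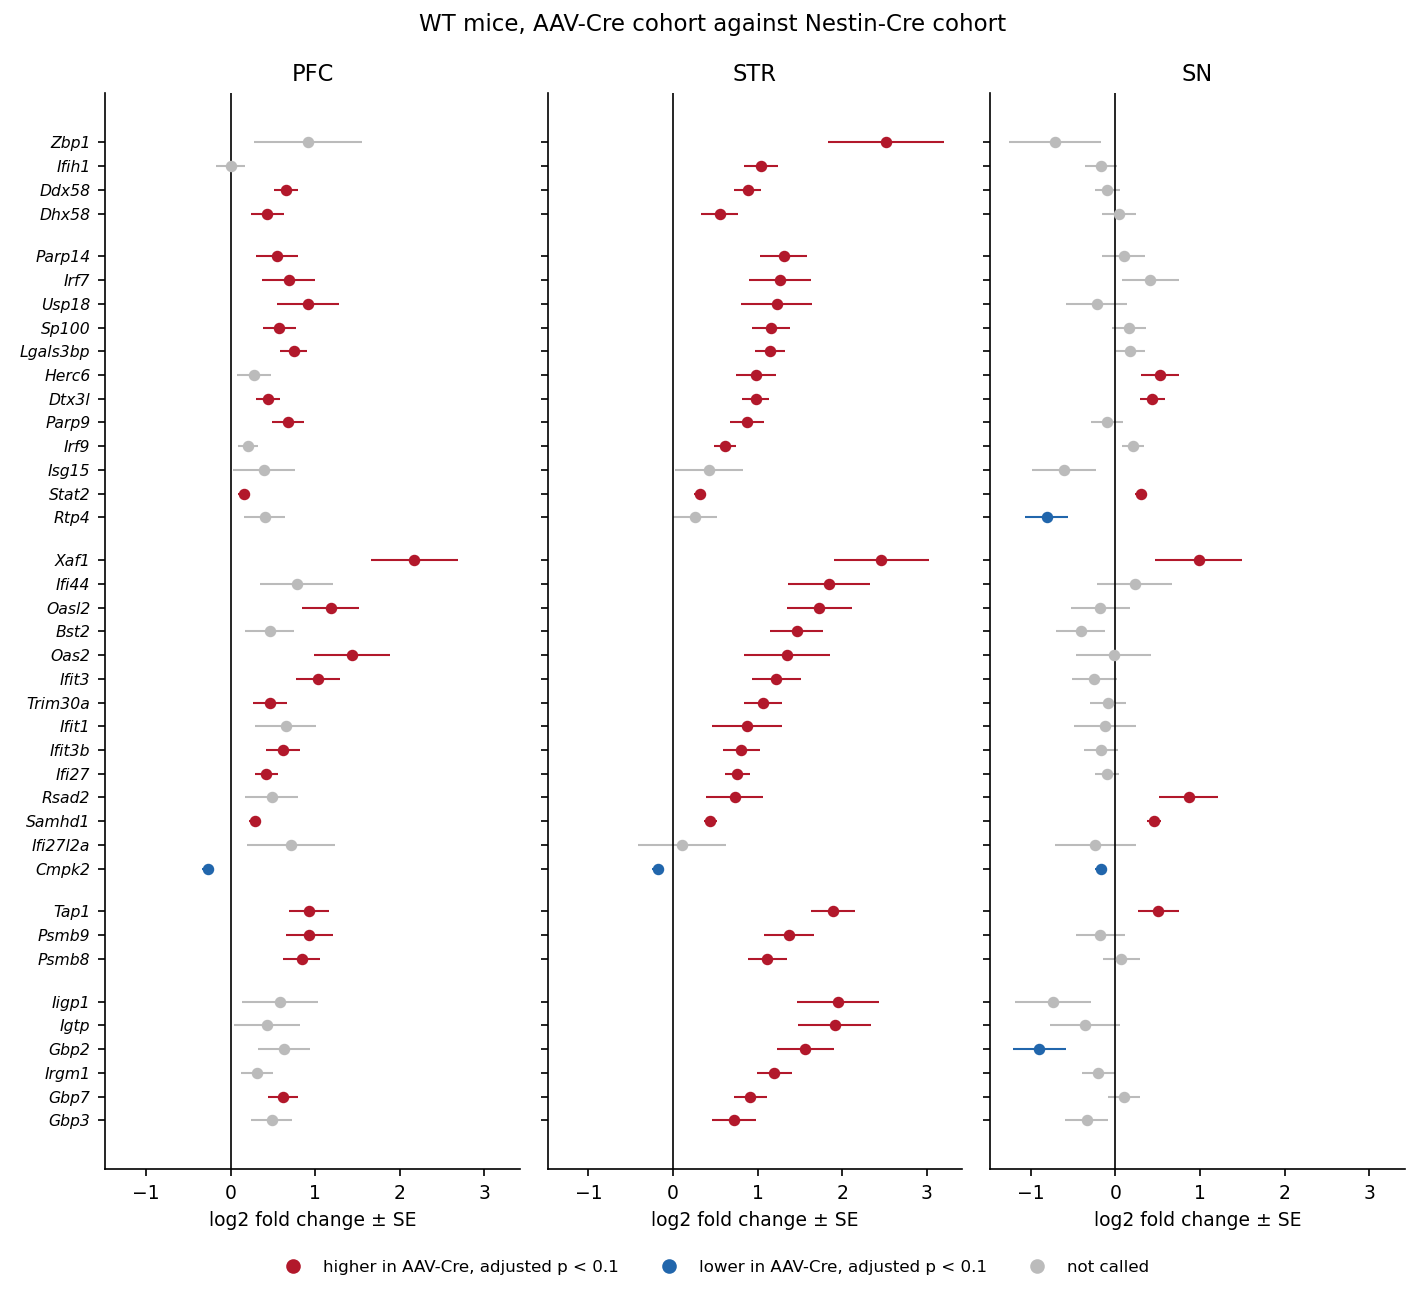
Difference between AAV-Cre and Nestin-Cre WT mice (log2 fold change ± SE, edgeR) of each of the 39 members in PFC, STR and SN, grouped by role; coloured points passed at an adjusted p under 0.1. In STR 35 members lie above 0 and passed, in PFC 22 and in SN 7, and Cmpk2 lies below 0 in all 3.

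By role, 6 of 6 GTPases (median 1.38), 3 of 3 antigen processing genes (1.37), 4 of 4 sensors (0.96), 10 of 12 signalling genes (0.98) and 12 of 14 effectors (0.97) were higher in AAV-Cre STR. Tap1 had 3.69, 4.87 and 15.8 cpm (lowest, median and highest) with AAV-Cre and 1.09, 1.83 and 2.00 with Nestin-Cre. The groups did not overlap, and the difference was 1.89 ± 0.26 (adjusted p = 1.99e-07). Oasl2, an OAS-like protein that enhances RNA sensing, had 2.81, 4.26 and 11.4 cpm against 0.820, 1.23 and 2.35, also without overlap (1.73 ± 0.39, 2.75e-04). Iigp1 had 1.35, 2.02 and 16.9 cpm against 0.820, 1.04 and 1.16, without overlap (1.95 ± 0.48, 8.78e-04). Igtp had 2.76, 3.72 and 35.8 cpm against 1.68, 1.96 and 2.89; these groups overlapped, and the highest library was that of M3677 (1.91 ± 0.43, 3.11e-04). Ifi44, a cytosolic antiviral protein, had 0.502, 1.45 and 3.73 cpm against 0.154, 0.318 and 1.16, with overlap (1.84 ± 0.48, 0.00145). Isg15 did not pass, at 0.352, 1.27 and 2.35 cpm with AAV-Cre and 0.614, 0.912 and 1.07 with Nestin-Cre (0.42 ± 0.40). Without M3677 the medians were 0.78 for GTPases, 0.98 for antigen processing genes, 0.86 for sensors, 0.92 for signalling genes and 0.90 for effectors. The differences of Igtp (0.75, 0.0119) and Iigp1 (0.85, 0.0420) were then less than 50% as large on the log2 scale, and those of Tap1 (1.49, 2.13e-07), Oasl2 (1.34, 0.00227) and Ifi44 (1.48, 0.00929) were smaller too. In that library Iigp1 had 16.9 cpm, and in the other 6 AAV-Cre WT libraries 1.35 to 2.60. Averaging the genotypes gave differences of 1.21 for Tap1, 1.09 for Oasl2, 1.04 for Iigp1, 1.15 for Igtp and 0.62 for Ifi44.

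Xaf1 had a large difference in STR and PFC. In STR its WT libraries had 7.24, 18.9 and 40.7 cpm with AAV-Cre and 2.02, 2.63 and 11.4 with Nestin-Cre, and in PFC 4.31, 17.4 and 30.6 against 2.09, 2.67 and 10.9. The groups overlapped in both, through 1 high Nestin-Cre mouse in each region. The differences were 2.46 ± 0.56 (5.52-fold, adjusted p = 3.33e-04) in STR and 2.17 ± 0.51 (4.51-fold, 0.00122) in PFC, and over 7 alternatives each the adjusted p was at most 3.86e-04 and 0.0164. With the 3 genotypes averaged they were 1.57 and 0.96. In SN it had 4.84, 25.0 and 41.5 cpm against 5.71, 8.63 and 38.2, a difference of 0.99 ± 0.51 whose adjusted p of 0.0997 was above 0.1 in 8 of 9 alternatives, at most 0.283 (0.75 without M4329 and M4394 and 0.42 with the genotypes averaged). Of the WT mice, 5 of 7 were above the Xaf1 gap with AAV-Cre, and 1 of 8 in PFC and 1 of 6 in STR with Nestin-Cre.

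In PFC 3 of 3 antigen processing genes (median 0.93), 8 of 12 signalling genes (0.50), 8 of 14 effectors (0.64), 2 of 4 sensors (0.54) and 1 of 6 GTPases (0.54) were higher with AAV-Cre. Oas2 had 0.606, 0.951 and 2.59 cpm (lowest, median and highest) against 0.172, 0.410 and 0.864 (1.43 ± 0.45, adjusted p = 0.0121). Oasl2 had 2.76, 4.64 and 12.1 cpm against 1.82, 2.27 and 3.13 (1.18 ± 0.34, 0.00633). The highest libraries of both were from M3588, and the groups overlapped. Ifit3, which binds foreign RNA with its IFIT partners, had 3.74, 7.17 and 10.6 cpm against 2.38, 3.52 and 4.99 (1.04 ± 0.26, 0.00218). Psmb9 had 1.34, 2.01 and 2.87 cpm against 0.547, 1.04 and 1.45 (0.93 ± 0.28, 0.00845), and Tap1 3.55, 4.99 and 6.49 against 1.54, 2.40 and 3.75 (0.93 ± 0.23, 0.00218). Without M3588 the medians were 0.85 for antigen processing genes (3 of 3 higher), 0.37 for signalling genes (4 of 12), 0.42 for effectors (7 of 14), 0.48 for sensors (1 of 4) and 0.35 for GTPases (1 of 6). Oas2 then differed by 1.10, 0.0742 and Oasl2 by 0.87, 0.0495, and with the 3 genotypes averaged by 0.73 and 0.72. In SN the members higher with AAV-Cre included the antiviral enzyme Rsad2 (1.96 ± 0.465 against 1.09 ± 0.585 cpm, mean ± SD; 0.87 ± 0.35, 0.0314), Herc6, the mouse ISG15 ligase (11.5 ± 2.09 against 8.21 ± 2.92; 0.53 ± 0.22, 0.0403) and Tap1 (6.15 ± 0.158 against 4.43 ± 1.70; 0.51 ± 0.24, 0.0710). Gbp2, a guanylate-binding protein, was lower (5.27 ± 2.20 against 10.2 ± 7.57 cpm; -0.90 ± 0.31, 0.0140), as was Rtp4 (1.97 ± 0.779 against 3.55 ± 1.44; -0.81 ± 0.25, 0.00612). M4329 and M4394 had 19.9 and 19.8 cpm of Gbp2 in SN and the other 4 Nestin-Cre WT libraries 3.66 to 7.32, and without both libraries neither Gbp2 (-0.03) nor Rtp4 (-0.45) passed, and Tap1 was 0.79. With the 3 genotypes averaged the differences were -0.54 for Gbp2, -0.48 for Rtp4 and 0.46 for Rsad2.

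The rest of the pathway was followed in lists. Of the 10 interferon genes listed, 0 reached the filter, and their summed level was at most 0.178 cpm in any library. In STR 25 of 32 other interferon-induced genes tested were higher with AAV-Cre and 0 lower, together with 7 of 8 other regulators, 8 of 13 genes of upstream sensing (1 lower) and 5 of 10 receptors and their kinases (1 lower). Over all genes in STR 30.6% were higher and 29.1% lower. Without M3677 the counts were 23 of 30 induced genes (1 lower), 7 of 8 regulators, 8 of 13 of upstream sensing (1 lower) and 5 of 10 receptors and kinases (1 lower). In PFC 17 induced genes, 4 regulators, 8 genes of sensing and 2 receptors or kinases were higher (2 lower), against 20.2% of all genes higher and 20.9% lower, and without M3588 these were 10, 4, 6 and 2 (2 lower). Nlrc5, which drives MHC class I genes, had 1.52, 2.89 and 14.2 cpm (lowest, median and highest) with AAV-Cre and 0.207, 0.384 and 0.799 with Nestin-Cre in STR (3.29 ± 0.44, adjusted p = 1.03e-07), and its difference in PFC was 1.17 ± 0.39 (0.0178). Gbp6 had a difference of 2.16 ± 0.43 in STR and 1.03 ± 0.40 in PFC, and Oas1b of 1.98 ± 0.43 and 1.03 ± 0.34. Without M3677 the STR differences were 2.60 for Nlrc5, 1.56 for Gbp6 and 1.74 for Oas1b, and without M3588 Gbp6 did not pass in PFC (0.67, 0.237). With the 3 genotypes averaged, Nlrc5 had 2.19 in STR and 0.68 in PFC, Gbp6 0.64 in PFC and Oas1b 1.27 in STR, and Oas1b did not pass in PFC (0.33, 0.176). In SN 5 of 32 interferon-induced genes were higher and 5 lower, and without M4329 and M4394 9 and 3 of 28, against 34.4% and 28.3% of all genes with them. There Tlr7, an endosomal RNA receptor, was lower (-1.02 ± 0.19, 2.3e-05), Ifnlr1, the interferon lambda receptor, higher (0.97 ± 0.30, 0.00619) and Ifi47 lower (-0.85 ± 0.38, 0.0525). Ifi47 did not pass without M4329 (-0.57), M4394 (-0.53) or both (0.072), and Tlr7 was -0.60 with the genotypes averaged.

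Markers of other cells moved with these comparisons too, and each list other than the lymphocytes with at least 50% of its tested genes called in 1 direction is given with its summed level, AAV-Cre against Nestin-Cre. In PFC 11 of 12 microglia markers (563 to 796 cpm against 444 to 552), 4 of 6 endothelial markers (144 to 215 cpm against 98.8 to 179) and 4 of 6 markers of striatal projection neurons (481 to 1310 cpm against 338 to 753) were higher, and 3 of 4 neuron markers were lower (3995 to 5413 cpm against 5035 to 6258). In STR 6 of 6 endothelial markers (121.1 to 157.2 cpm against 45.4 to 114), 5 of 5 choroid plexus markers (111 to 8196 cpm against 51.2 to 287), 3 of 5 tested markers of reactive astrocytes and injury (176 to 439 cpm against 103 to 200) and 3 of 6 oligodendrocyte markers (7721 to 12580 cpm against 5769 to 11720) were higher. Lower there were 3 of 4 neuron markers (2559 to 2804 cpm against 3169 to 3658, without overlap) and 4 of 5 cortical excitatory neuron markers (1 higher; 30.8 to 78.3 cpm against 15.6 to 300). Of the microglia markers in STR, 1 was higher and 1 lower (641 to 786 cpm against 613 to 810). In SN 8 of 12 microglia markers (510 to 793 cpm against 700 to 1022), 6 of 6 oligodendrocyte markers (13120 to 20290 cpm against 18020 to 31980) and 5 of 7 astrocyte markers (1 higher; 3810 to 5086 cpm against 4620 to 6891) were lower. Higher there were 6 of 6 endothelial markers (161 to 196 cpm against 72.8 to 154), 5 of 6 markers of striatal projection neurons (148 to 709 cpm against 137 to 210) and 2 of 4 neuron markers (1 lower; 3357 to 4463 cpm against 3466 to 4092). Their part in the members' differences was not tested. Of the 10 lymphocyte markers in the table, 2 reached the filter.

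Regions of uninjected WT mice also differed. With Nestin-Cre, 26 of 39 members were higher in SN than in PFC, against 38.8% of all genes, and 2 lower, against 41.5%, with a median difference of 0.74 against -0.02 over all genes. With M4329 and M4394 in the fit, the higher members were 10 of 14 effectors, 6 of 12 signalling genes, 4 of 6 GTPases, 3 of 4 sensors and 3 of 3 antigen processing genes. These role counts are given only with that pair. Without M4329 and M4394, 12 were higher and 4 lower, with a median of 0.24; the 31.6% higher then lay below the share of all genes. Gbp2 had 2.27, 2.85 and 3.40 cpm (lowest, median and highest) in PFC and 3.66, 6.50 and 19.9 in SN, without overlap (1.61 ± 0.31, adjusted p = 1.42e-05). Ifit3 had 2.38, 3.52 and 4.99 cpm in PFC and 5.04, 8.0 and 23.1 in SN, again without overlap (1.46 ± 0.27, 5.53e-06). When M4329 and M4394 were left out, the difference was 0.75, 0.0196 for Gbp2 and 0.78, 0.00502 for Ifit3. Xaf1 had 2.09, 2.67 and 10.9 cpm against 5.71, 8.63 and 38.2, with overlap (1.64 ± 0.53, 0.00548), and a difference of 1.88 without the pair of libraries. Ifi27l2a (1.71 ± 0.51, 0.00257), Iigp1 (1.27 ± 0.45, 0.0108) and Usp18, which removes ISG15 and damps the receptor (1.27 ± 0.37, 0.00219), did not pass without the pair (0.59, 0.32 and 0.60), and Ifi27l2a was 1.03 without M4329 alone. Iigp1 was 0.82 with the 3 genotypes averaged. The members lower in SN were Herc6 (-0.99 ± 0.22) and Stat2 (-0.52 ± 0.07).

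STR was set against both other regions in Nestin-Cre WT mice. Against SN, 34 members were lower, against 39.4% of all genes, and 1, the dNTP hydrolase Samhd1 (0.21 ± 0.08), was higher, against 39%. Without M4329 and M4394, 23 were lower and 2 higher. Usp18 had 0.273, 0.518 and 0.799 cpm in STR and 1.27, 1.60 and 5.45 in SN, without overlap (-2.02 ± 0.42, adjusted p = 5.16e-05). Ifit1, which recognises foreign RNA caps, had 0.715, 1.32 and 1.64 cpm against 1.78, 2.23 and 17.6, also without overlap (-1.98 ± 0.42, 5.44e-05). Ifit3 (-1.95 ± 0.30, 2.59e-07), Gbp2 (-1.91 ± 0.35, 5.51e-06), Oasl2 (-1.85 ± 0.40, 7.61e-05) and Iigp1 (-1.63 ± 0.50, 0.00377) were lower as well, and Iigp1 did not pass without M4329 and M4394 (-0.68). Without this pair the differences were -1.36 for Usp18, -0.60, 0.0940 for Ifit1 (-1.23 without M4394 alone), -1.27 for Ifit3, -1.05 for Gbp2 and -0.99 for Oasl2. Against PFC, 15 members were lower in STR, against 35% of all genes, and 1, again Samhd1 (0.27 ± 0.08), was higher, against 35.3%. With mouse as a block in the fit, 9 were lower and 2 higher. The share of members lower was 38.5%, near that of all genes, and 23.1% with the block, so these counts do not set the members apart. Herc6 had 6.95, 13.1 and 21.9 cpm in PFC and 3.20, 3.94 and 5.30 in STR (-1.85 ± 0.23, 4.08e-09), and Ifih1 3.99, 5.22 and 6.85 and 1.63, 2.20 and 3.11 (-1.29 ± 0.20, 3.75e-07), both without overlap. Dtx3l, a ubiquitin ligase that acts with Parp9 (-1.25 ± 0.16, 5.46e-09), Irgm1 (-1.0 ± 0.20, 5.12e-05), Irf7, a factor that amplifies type I interferon (-0.94 ± 0.36, 0.0214), and the nuclear body protein Sp100 (-0.88 ± 0.22, 5.19e-04; -0.53 with the genotypes averaged) were lower too.

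Other genes of the pathway were counted in the same mice. Of 32 other interferon-induced genes, 21 were higher and 3 lower in SN than in PFC, 2 and 14 in STR than in PFC, and 1 and 29 in STR than in SN. The shares of all genes higher and lower were 38.8% and 41.5%, 35.3% and 35%, and 39% and 39.4% in turn. Without M4329 and M4394, 12 were higher and 4 lower in SN than in PFC, and 1 and 17 in STR than in SN, of 28. Between STR and SN the differences were -2.03 ± 0.13 for Ifit2, -2.50 ± 0.44 for Gbp6 and -1.95 ± 0.45 for Oas1b (-1.20 without M4329 and M4394 and -1.30 with the genotypes averaged). Socs3, which blocks cytokine receptors, was lower than in PFC in both STR (-2.0 ± 0.21) and SN (-1.26 ± 0.20), as were Ly6e (-1.69 ± 0.09) and Oas1b (-1.51 ± 0.44) in STR. Gbp6 (2.17 ± 0.39) and Ifnlr1 (1.42 ± 0.34) were higher in SN than in PFC. Cell type markers moved with region as well: microglia markers summed to 700 to 1022 cpm in SN, 613 to 810 in STR and 444 to 552 in PFC, and endothelial markers to 72.8 to 154, 45.4 to 114 and 98.8 to 179. Markers of reactive astrocytes and injury summed to 1048 to 2125, 103 to 200 and 232 to 354 cpm in the same order, with no overlap between regions. Oligodendrocyte markers summed to 18020 to 31980, 5769 to 11720 and 3738 to 6309. Their part in the members' differences was not tested.

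In AAV-Cre WT mice fewer members differed between regions. In SN, 3 were higher than in PFC, against 33.5% of all genes, and 2 lower, against 37.1%. Herc6 had 17.6 ± 4.32 cpm (SD, n = 7) in PFC and 11.5 ± 2.09 in SN (-0.74 ± 0.21, adjusted p = 0.00194), and Stat2 42.0 ± 3.10 and 35.3 ± 1.58 (-0.38 ± 0.07, 4.17e-06). Samhd1 (0.24 ± 0.08, 0.00605), Ifit3b (0.38 ± 0.20, 0.0882) and Cmpk2 (0.13 ± 0.07, 0.0988) were higher in SN. The counts were 6 and 2 with mouse as a block, 6 and 2 with DESeq2's size factors, 6 and 2 without M3588 and 23 and 2 with the 3 genotypes averaged. Under that average 12793 of 15675 genes passed, a larger share than that of the members. In STR, 7 members were higher than in PFC, against 31.7% of all genes, and 3 lower, against 29.6%; without M3677 these were 1 and 6. Herc6 (8.18 ± 1.68 cpm in STR; -1.15 ± 0.21, 1.33e-05) and Dtx3l (4.56 ± 0.840 against 7.27 ± 0.852; -0.71 ± 0.14, 6.12e-05) were lower in STR. Iigp1 (1.00 ± 0.44, 0.0506), Igtp (0.77 ± 0.39, 0.0936), Gbp2 (0.63 ± 0.31, 0.0804) and Bst2, which tethers virus particles (0.61 ± 0.29, 0.0673), were higher. Without M3677 none of these 4 passed, with Gbp2 at 0.24 and Bst2 at 0.44, and Iigp1 and Igtp turned to -0.10 and -0.39. With mouse as a block, Iigp1 (0.61, adjusted p = 0.200), Igtp (0.25, 0.507) and Gbp2 (0.57, 0.126) did not pass either, nor did Cmpk2 between SN and PFC (0.13, 0.109). Cmpk2 did not pass without M3588 either (0.12, 0.156) or with the genotypes averaged (0.022, 0.675), when Samhd1 was 0.37 and Ifit3b 0.61 between SN and PFC. Between STR and PFC the average gave 0.28, 0.119 for Igtp, which did not pass, and 0.56 for Iigp1.

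STR against SN in AAV-Cre WT mice gave 6 members higher, against 36.8% of all genes, and 6 lower, against 35.4%. The split was 4 and 9 with DESeq2's size factors, 3 and 8 with mouse as a block, 5 and 20 with the 3 genotypes averaged, and 1 and 6 without M3677. Under the average 13077 of 15675 genes passed, a larger share than that of the members. Igtp (1.14 ± 0.39, adjusted p = 0.0101), Iigp1 (1.06 ± 0.43, 0.0292) and Psmb9 (0.68 ± 0.27, 0.0242) were higher in STR. In the library of M3677 Igtp had 35.8 cpm and in the other 6 2.76 to 5.56. Without it none of the 3 passed, and Igtp and Iigp1 turned to -0.024 and -0.043; with mouse as a block they were 0.56 (adjusted p = 0.105) and 0.51 (0.260). With the genotypes averaged they were 0.44 and 0.36, with Psmb9 at 0.33, and without M3677 Psmb9 was 0.29. Ifit1 had 1.42, 2.16 and 3.73 cpm (lowest, median and highest) in STR and 3.07, 4.63 and 8.35 in SN (-0.98 ± 0.36, 0.0170), and Dtx3l (-0.48 ± 0.14, 0.00367) and Ifit3b (-0.46 ± 0.20, 0.0387) were lower in STR as well. Among pathway genes outside the members, Ly6e (-1.63 ± 0.09) and Socs3 (-1.47 ± 0.19) were lower and Nlrc5 higher (1.36 ± 0.36) in STR than in PFC. Ifnlr1 (1.99 ± 0.33) and Ifit2 (1.06 ± 0.12) were higher and Socs3 lower (-1.18 ± 0.19) in SN than in PFC. Ifit2 (-1.36 ± 0.12) and the immunoproteasome subunit Psmb10 (-1.04 ± 0.08) were lower and Nlrc5 higher (1.13 ± 0.35) in STR than in SN. Without M3677, Nlrc5 was 0.67, 0.0501 against PFC and did not pass against SN (0.44, 0.165), where it was 0.35 with the genotypes averaged.

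Whether a regional difference itself differed between the models was tested as an interaction in the fit of all WT libraries. Higher and lower refer here to the signed difference. The difference STR minus SN was higher with AAV-Cre for 27 of 39 members, against 14.7% of all genes, and lower for 0, with a median of 1.04. The members' median STR minus SN was -1.20 with Nestin-Cre and -0.032 with AAV-Cre. The signed difference was higher with AAV-Cre for 24 without M3677 and for 16 without M4329 and M4394. Iigp1 (2.69 ± 0.66, adjusted p = 0.00305), Gbp2 (2.46 ± 0.46, 2.30e-04), Igtp (2.27 ± 0.59, 0.00501), Oasl2 (1.91 ± 0.52, 0.00668), Bst2 (1.87 ± 0.42, 0.00141) and Ifi44 (1.62 ± 0.65, 0.0620) led. Ifi44 did not pass without M3677 (1.25), M4329 (1.36), M4394 (1.40) or the last 2 together (0.94), nor did Oasl2 without the latter pair (1.05). Without M3677, Iigp1 was 1.58 and Igtp 1.11. After removal of M4329 and M4394, Iigp1 was 1.73 and Gbp2 1.59. With mouse as a block Iigp1 was 1.67 and Igtp 1.44. Averaged over the 3 genotypes, 27 members passed with a median of 0.64, and the leading 6 were 1.59, 1.59, 1.43, 1.14, 1.02 and 0.66. The difference STR minus PFC, with a median over the members of -0.39 with Nestin-Cre and -0.01 with AAV-Cre, was higher with AAV-Cre for 8 members, against 15.2% of all genes, with Igtp (1.48 ± 0.58, 0.0609), Ifih1 (1.04 ± 0.27, 0.00477), Bst2 (1.00 ± 0.42, 0.0831), Tap1 (0.96 ± 0.35, 0.0407), Irgm1 (0.89 ± 0.28, 0.0189) and Herc6 (0.70 ± 0.31, 0.0944) first. It was higher for 4 (10.3%) with mouse as a block and for 2 (5.26%) without M3677, when Igtp, Bst2, Tap1 and Herc6 no longer passed. The main share of members was 20.5%, so the STR minus PFC counts do not set the members apart. With the block Igtp (0.72), Bst2 (0.84) and Tap1 (0.75) did not pass. Without M3677, Igtp was 0.32, Bst2 0.83, Tap1 0.56, Herc6 0.64 and Irgm1 0.50, 0.0444. Herc6 did not pass without M3588 (0.71, 0.106). The average over genotypes called 15 members (38.5%), near the share of all genes (6233 of 15675 called). It gave 0.76 for Igtp, 0.53 for Ifih1, 0.58 for Bst2, 0.58 for Tap1, 0.53 for Irgm1 and 0.47 for Herc6. Of the pathway genes, Nlrc5 (2.12 ± 0.59), Irgm2 (1.25 ± 0.54) and Gbp4 (1.03 ± 0.43) had a higher STR minus PFC difference, and Nlrc5 (2.64 ± 0.58), Gbp6 (2.38 ± 0.57) and Irgm2 (2.15 ± 0.55) a higher STR minus SN difference. Of these, Irgm2 and Gbp4 in STR minus PFC did not pass without M3677 (0.41 and 0.54) or with mouse as a block (0.75 and 0.83), nor did Irgm2 without M3588 (1.25, 0.108). In STR minus SN Irgm2 was 1.31 without M3677, and the average gave 1.41 for Nlrc5, 1.52 for Gbp6 and 1.23 for Irgm2, which had 0.67 in STR minus PFC.

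The difference SN minus PFC was lower with AAV-Cre for 16 members, against 19.8% of all genes, with a median of -0.75. The members' median SN minus PFC was 0.74 with Nestin-Cre and 0.051 with AAV-Cre. Gbp2 (-1.53 ± 0.44, adjusted p = 0.00558), Oas2 (-1.45 ± 0.63, 0.0662), Oasl2 (-1.36 ± 0.49, 0.0245), Iigp1 (-1.32 ± 0.64, 0.0996), Ifit3 (-1.29 ± 0.37, 0.00550) and Rtp4 (-1.22 ± 0.35, 0.00547) led. The signed difference was lower for 10 without M3588, for 9 without M4329, for 10 without M4394 and for 2 without the last 2 together, when 2 were higher. Without M4329 and M4394 together, Gbp2 (-0.66), Oas2, Oasl2 (-0.50), Iigp1 (-0.37) and Ifit3 (-0.61) did not pass, and Oas2 and Iigp1 did not pass without M3588 either. Oas2 (-0.73) and Iigp1 (-1.07) did not pass without M4329 alone, and Oas2 (-1.28), Iigp1 (-0.97) and Oasl2 (-0.95) not without M4394 alone. Iigp1 did not pass with mouse as a block (-0.92). With the 3 genotypes averaged, 14 members were lower and 2 higher, with a median of -0.30. Rtp4 (-0.38, 0.128) and Oas2 (-0.56, 0.197) did not pass under that average, and Gbp2 was -0.98, Oasl2 -0.77 and Iigp1 -0.62. Isg20 (-1.32 ± 0.39), Ifitm3 (-1.29 ± 0.41) and Gbp6 (-1.26 ± 0.54) had a lower SN minus PFC difference with AAV-Cre. When M4329 and M4394 were both left out, Ifitm3 (-0.34) and Gbp6 (-1.12) did not pass and Isg20 was -0.86, and Ifitm3 was -0.82 without M4329 alone. Gbp6 did not pass without M3588 (-0.89) or with mouse as a block (-1.24), and the average gave -0.64 for Gbp6 and -0.64 for Isg20.

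Within groups the members varied together, with Xaf1 apart from most of them. After removal of group means, log2(TMM cpm + 0.5) of 2 members had a mean Pearson r of 0.32 over 741 pairs and all libraries, and pairs over all 15675 genes had a mean of 0.002. These correlations are descriptions, since the libraries share 43 mice and their depth. Oasl2 had the highest mean r with the other members (0.50), followed by Parp14 (0.46) and Iigp1 (0.45). The closest pair was Ifi27 with Lgals3bp (0.80). Cmpk2, the member that was lower in AAV-Cre mice, had the lowest mean r, -0.17. Xaf1 had the next lowest, 0.05, and its highest r with a member was 0.28 (Herc6).

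The 10 genes whose pattern was most like that of Xaf1, by the absolute r over the same libraries, held no member, and 7 of the 10 were on chromosome 11, which holds 8.12% of the genes compared. Slc2a4, the glucose transporter GLUT4, began at a position 2.36 Mb lower than Xaf1 (r = 0.60), 4930563E22Rik 0.0865 Mb lower (0.59) and 6330403K07Rik 1.27 Mb lower (-0.54). Cyb5d2 began 0.476 Mb higher (-0.54). Gid4 (-0.52), Shmt1, a folate enzyme (0.51), and Grap (0.51) began 11.9, 11.5 and 10.7 Mb lower. The others were 1700063D05Rik (0.53) and Cryab (0.50) on chromosome 9 and Ptprm (-0.50) on chromosome 17. Within the 6 sets of libraries of 1 model and region, r was 0.15 to 0.73 for 4930563E22Rik and -0.74 to -0.23 for Cyb5d2. For Slc2a4 it was 0.68 to 0.85 with AAV-Cre and 0.14, 0.04 and 0.68 in PFC, STR and SN with Nestin-Cre. At an absolute r over 0.4 there were 150 genes, 24 of them on chromosome 11.

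**Figure D5:**
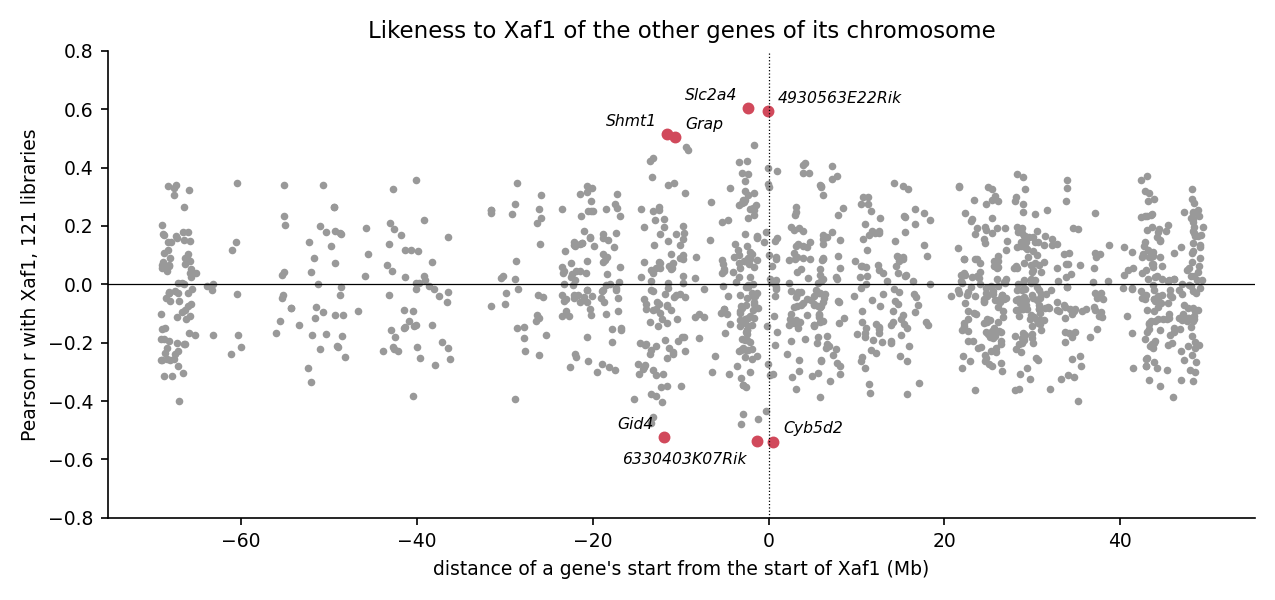
Pearson r with Xaf1 (group means removed, all libraries) of each tested gene on chromosome 11, against the distance of its start from that of Xaf1 in Mb. Genes with a large absolute r include 4930563E22Rik (0.59) and Cyb5d2 (-0.54) within 1 Mb and Gid4 (-0.52) at -11.9 Mb.

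The last question was whether a mouse high in a member in 1 region was high in another. For the 38 members other than Xaf1, 228 relations were computed over 15 to 22 mice each, with group means removed and M4575 left out, and 5 passed at an adjusted permutation p under 0.05 for Pearson's r, in 4 members. At a pseudocount of 2 in place of 0.5, 2 passed. Over all genes, 8.88% to 22.3% had an r over 0.5 in these region pairs. The r of the 5 relations were at or above those of 96.3% to 99.5% of all genes in the same pair. Herc6 between PFC and SN had r = 0.89 (rho = 0.77; adjusted permutation p = 0.00456 for r and 0.0543 for rho; r = 0.81 without the 2 mice farthest from the median) in 15 Nestin-Cre mice. In 22 AAV-Cre mice it had r = 0.65 (rho = 0.72; adjusted permutation p = 0.0474 for r and 0.0194 for rho; r = 0.66 without the 2 mice farthest from the median). Ifit3 between PFC and STR had r = 0.82 (rho = 0.85; adjusted permutation p = 0.0160 for r and 0.0194 for rho; r = 0.83 without the 2 mice farthest from the median) in 15 Nestin-Cre mice. Oas2 between PFC and SN had r = 0.68 (rho = 0.66; adjusted permutation p = 0.0441 for r and 0.0543 for rho; r = 0.59 without the 2 mice farthest from the median) in 22 AAV-Cre mice, and Igtp r = 0.65 (rho = 0.51; adjusted permutation p = 0.0474 for r and 0.184 for rho; r = 0.54 without the 2 mice farthest from the median). By rho, Igtp, Oas2 and Herc6 with Nestin-Cre did not pass. The median r over the 38 members ran from -0.11 (AAV-Cre STR and SN) to 0.31 (Nestin-Cre PFC and STR), and the median over all genes from 0.114 to 0.256.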

How the data were processed

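RNA was sequenced from PFC, STR and SN of mice, and the authors deposited 1 table of raw read counts per gene, not normalized (24412 genes). Per the submitters' processing notes the tools were bcl2fastq 2.20.0.422, STAR 2.5.2b and featureCounts 1.5.1, with build mm10; the library kit kept strand, and the strand setting of the counting is not given in the sources used here. Groups came from the labels. The smallest chi-square per degree of freedom between libraries of a group, over genes with at least 20 reads in the pair, was 4.66, so no 2 libraries of a group agreed within counting noise. Totals ran from 9869584 to 26750905 counts (median 17885830), and 6 rows without a symbol were kept by identifier.

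The members and lists were chosen with earlier results of these data known. Tests were edgeR 4.0.16 quasi-likelihood tests (R 4.3.3) with TMM factors on genes with at least 1 cpm in 3 libraries, with Benjamini-Hochberg adjustment over all genes and a threshold of 0.1. Genotypes were compared in 1 fit per model and region, regions and models in a fit of all WT libraries, and differences between genotype effects in a fit of all libraries. The SE was the size of the log2 fold change divided by the root of the F statistic. Replicates are mice, with 1 library per mouse and region. Correlations used log2(TMM cpm + 0.5) less the group means, with permutation tests of 100000 resamples (scipy 1.17.1). Same-numbered libraries come from 1 animal: with group means removed, the median r over 15675 genes between regions of a mouse was 0.114 to 0.256.

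Genes were named by rule: Xaf1 in every group, members called in a genotype comparison or interaction, up to 6 called members per region or model comparison by size of the change (mean of at least 1 cpm in a group), 2 members per role by level, the 10 genes most like Xaf1, up to 3 pathway genes per comparison, and Gdnf. Trim30a, Ddx58, Cmpk2, Ifi27, Igtp, Iigp1 and Isg15 in single comparisons, the mice set side by side and the cell markers of single libraries were chosen after their values were seen. Alternatives were DESeq2 1.42.0, the likelihood ratio test, DESeq2 size factors, no filter, a threshold of 0.05, a mouse block, other libraries in the fit, leaving out mice, and a pseudocount of 2. The fit was tested on simulated counts.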

Additional observations from a re-analysis of the deposited data

Results flagged for a closer look

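For Xaf1 and the member index in every group and for the other members in the WT groups, Dixon's gap test was applied to the highest and the lowest library. In 33 of 264 such groups of libraries the gap was over its 95% value, and chance gives about 1 in 20. The member index was over it in 0 of its 18 groups. Members that vary together share these libraries, so the 33 are not independent. In AAV-Cre STR WT, the library of M3677 stood above the rest in Oasl2 (11.38 cpm), Psmb8 (15.79), Psmb9 (6.227), Tap1 (15.84), Gbp2 (17.51), Gbp3 (14.17), Gbp7 (13.34), Igtp (35.8), Iigp1 (16.87) and Irgm1 (24.86 cpm). These 10 genes hold all 6 GTPases and all 3 antigen processing genes of the set. In AAV-Cre PFC WT, M3588 stood above the rest in Irf7 (6.316 cpm), Usp18 (4.342), Oas2 (2.594), Oasl2 (12.12), Gbp3 (9.248) and Iigp1 (4.06 cpm).

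M3578 was the lowest AAV-Cre WT mouse in STR for Ddx58 (5.043 cpm) and Ifi27l2a (0.7037) and the highest in SN for Lgals3bp (37.02), Ifi27l2a (6.524) and Gbp2 (9.835 cpm). In Nestin-Cre STR WT, M4609 was the highest for Ddx58 (4.885 cpm), Irf7 (1.465), Ifi44 (1.155) and Gbp3 (6.439). In Nestin-Cre PFC WT, M4329 was the highest for Usp18 (1.712 cpm), M4529 for Cmpk2 (36.87) and M4575, the mouse with conflicting labels, for Ifi44 (1.656) and Irgm1 (11.02). M4394 was the highest in Nestin-Cre SN WT for Isg15 (5.665 cpm). For Xaf1, 1 high mouse stood apart in each Nestin-Cre WT group: M4396 in PFC (10.94 cpm) and M4545 in STR (11.44) and SN (38.17).

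Effects that differed between the models by an interaction term were a second kind. Between regions of WT mice, 8 members passed for STR minus PFC, 16 for SN minus PFC and 27 for STR minus SN. Of all genes 15.2%, 19.8% and 14.7% passed in the same direction. Between genotypes in STR, Irgm1 (-0.74) and Tap1 (-1.15) passed for the HET effect and Trim30a (-1.32) for the HOM effect, all on the log2 scale.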

How the results depend on the processing

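Members were counted as called at an adjusted p under 0.1, and 279 counts under an alternative lay within 1.5 times the main count, while 51 did not. Of the single members, 630 values kept their direction and call, 66 lost the call, 9 gained it and 4 turned their direction. Leaving out single libraries of M3677, M3588, M4329 and M4394 was chosen after seeing the data. edgeR's likelihood ratio test called 2 members for HET and 6 for HOM in AAV-Cre PFC, 3 and 7 in AAV-Cre STR, 1 for HET in AAV-Cre SN, 2 and 1 in Nestin-Cre PFC, 1 and 1 in Nestin-Cre STR and 1 for HOM in Nestin-Cre SN, where the quasi-likelihood test called 0. Between the models it called 1 for HET and 1 for HOM in PFC, 9 and 9 in STR and 2 and 1 in SN, and between SN and PFC 1 for HET with AAV-Cre and 1 for HOM with Nestin-Cre. The likelihood ratio test takes the spread from the trended dispersion, while the quasi-likelihood test also estimates a spread for each gene. The part of this in the calls was not tested. DESeq2 called 1 member for HET in Nestin-Cre STR, and 1 fit of the libraries of all groups called 6 there and 1 for HET in Nestin-Cre SN. Leaving out each Nestin-Cre PFC HOM mouse in turn gave 0 to 1 called member, the 1 being Xaf1 without M4580. For SN against PFC in AAV-Cre WT mice, 5 members passed in the main analysis and 8 with DESeq2, 8 with its size factors in edgeR, 8 with the likelihood ratio test, 8 without M3588 and 25 with the 3 genotypes averaged. The average called 25 for STR against SN in AAV-Cre mice, where 12 passed, and 15 for the STR minus PFC interaction, where 8 passed. It called 12793 of 15675 genes for SN against PFC, 13077 for STR against SN and 6233 for the interaction. In none of these was the members' share higher than that of all genes. The STR minus PFC interaction called 4 with no filter on low counts. At an adjusted p under 0.05, AAV-Cre WT mice had 5 members for STR against PFC, 3 for SN against PFC and 7 for STR against SN. The interactions had 3 for STR minus PFC and 10 for SN minus PFC, and the difference between the models in STR had 1 member for HET and 0 for HOM. Without M3677, 7 members were called for STR against SN in AAV-Cre WT mice, 2 for the STR minus PFC interaction and 0 and 0 for HET and HOM between the models in STR. The 4 values that turned did so without M3677: Iigp1 to -0.10 and Igtp to -0.39 for STR against PFC, and Igtp to -0.024 and Iigp1 to -0.043 for STR against SN. For the SN minus PFC interaction, 10 were called without M3588, 9 without M4329, 10 without M4394 and 4 without the latter pair. Without that pair, 16 were called for SN against PFC in Nestin-Cre WT mice, 16 for the STR minus SN interaction and 1 for HET between the models in SN. At a pseudocount of 2, 2 relations between regions in place of 5 passed. With mouse as a replicate block (the pairing of regions by animal), 8 members were called for SN against PFC in AAV-Cre WT mice and 4 for the STR minus PFC interaction, and the block moved no other total by over 1.5 times. By direction, 1 member higher and 15 lower for STR against PFC in Nestin-Cre WT mice became 2 and 9, and 6 and 6 for STR against SN in AAV-Cre WT mice became 3 and 8. Calls near the threshold were lost in other fits too. With no filter on low counts these included Igtp for STR against PFC in AAV-Cre WT mice, Xaf1 between the models in SN, Iigp1 for the SN minus PFC interaction, Bst2, Herc6, Gbp4 and Irgm2 for the STR minus PFC interaction, and Nlrc5, Isg20 and Socs3 (STR) and Tlr7 (SN) for HET between the models. With the likelihood ratio test they included Cmpk2 and Ifit3b for SN against PFC in AAV-Cre mice, Samhd1 for STR against SN in Nestin-Cre mice, Cmpk2 between the models in STR, and Socs3 and Tlr7 for HET between the models. Without M4575, Xaf1, Iigp1, Bst2 and Gbp4 lost the calls that they lost with no filter. Depth limits the low members: Isg15 and Oas2 had libraries with 0 and 2 reads, and Zbp1 passed no filter within a model and region.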
